A study of Schmidtea mediterranea with 28 samples.

Results

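Xins cells are the differentiated cells of the planarian *Schmidtea mediterranea*, and their RNA was sequenced after the muscleblind-like (*mbnl*) genes had been silenced by RNA interference (RNAi). The 4 libraries compared were the 2 replicates of *mbnl* RNAi and the 2 replicates of control RNAi in the Xins fraction, out of 28 libraries in the series. All animals were of the asexual Berlin-1 strain, whose worms all descend from a single individual. The *mbnl* animals had been injected with a mixture of double-stranded RNA (dsRNA) against *mbnl-1* and its 3 relatives (*mbnl-like-1*, then *mbnl-like-2*, then *mbnl-like-3*), each at 1 µg/µl on 3 consecutive days, and the control animals with dsRNA against green fluorescent protein, a gene that planarians lack. Dissociated cells were stained and sorted by flow cytometry into X1 (more than a single DNA content, the neoblasts, which are the dividing stem cells), X2 (small cells enriched in neoblast progeny) and Xins (non-dividing cells with much cytoplasm). The study sorted these cells at an earlier time after RNAi than that of its regeneration tests and its time course of marker levels. Further references were 2 Xins libraries of untreated wild type animals, 2 of *bruli* RNAi, 6 X1 libraries of *mbnl*, *bruli* and control RNAi, and X2 and whole-worm libraries of 1 replicate per group. The gate sets DNA content and cell size and not cell type, so Xins pools many differentiated tissues, and the dsRNA acts on the whole animal and not on these cells alone.

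Muscleblind-like proteins are zinc-finger RNA-binding proteins that choose between alternative exons of pre-mRNA and also bind mature mRNA. In mammals they rise as cells differentiate and act against CELF-family proteins, of which planarian *bruli* is one. The levels below are those of whole transcripts and do not show which exons a transcript holds.

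The dsRNA templates were amplified with designed primer pairs, which are shown because they define what was silenced. The study lists 5 pairs for the 4 genes, with another, independent pair for *mbnl-1* that is not shown, and every primer is 22 bases long.
mbnl-1 first: tgctatagcgccatattctcaa
mbnl-1 second: gctgatcttgctggaattaggt
mbnl-like-1 first: ttccacagcttctaacgatcaa
mbnl-like-1 second: ctattggaagccactgaaatcc
mbnl-like-2 first: gcggacgagtgatatgttgtta
mbnl-like-2 second: gcggagttatcaataaggcatc
mbnl-like-3 first: ctgctggggtgtttgatagata
mbnl-like-3 second: ccctcaacagctgtgtcattta

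The silenced transcripts were lower in both *mbnl* libraries. Levels are given in CPM, the counts of a transcript scaled to a common library total of 1e+06 within a fraction. *mbnl-like-1* (comp7489) stood at 3.53 and 3.63 CPM after *mbnl* RNAi, at 20.5 and 13.9 after control RNAi, at 17.9 and 11.5 after *bruli* RNAi and at 13.4 and 28.5 in wild type. Both *mbnl* libraries therefore lay below all 6 others, at 17.2% of the control in replicate 1 and 26.1% in replicate 2. *mbnl-1* (comp2838) stood at 35.7 and 57.2 CPM, against 117 and 97.3 in control, 103 and 89.8 after *bruli* RNAi and 96.8 and 138 in wild type. The remaining level of *mbnl-1* was 30.5% in replicate 1 and 58.8% in replicate 2, again without overlap with the other groups. *mbnl-like-3* (comp17985) was rare, with 6 and 27 reads after *mbnl* RNAi against 27 and 54 in control, or 0.424 and 0.711 against 1.19 and 1.5 CPM. It did not pass the filter on low levels and was not tested, and *mbnl-like-2* was not analysed here. The fitted log2 difference between *mbnl* and control was −2.19 for *mbnl-like-1* (standard error 0.28, 95% interval −2.89 to −1.5) and −1.20 for *mbnl-1* (standard error 0.29, 95% interval −1.92 to −0.47). Neither passed the threshold of 0.05 in edgeR's quasi-likelihood test after Benjamini-Hochberg adjustment over all transcripts (adjusted p = 0.998 for both, unadjusted 0.000352 and 0.00742), whereas DESeq2 with the same design called *mbnl-like-1* (adjusted p = 1.08e-05) and not *mbnl-1* (0.230).

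**Figure D1:**
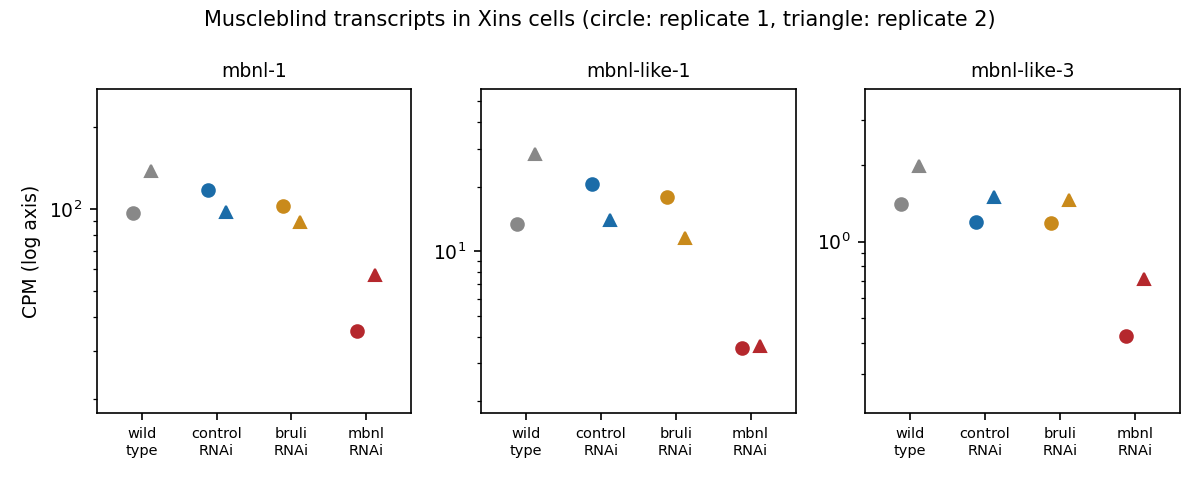
CPM on a log axis of the 3 silenced transcripts (*mbnl-1*, then the like-1 and like-3 relatives) in the 8 Xins libraries, with circles for replicate 1 and triangles for replicate 2 of each group. The *mbnl* RNAi points are the lowest of each panel, at 3.53 and 3.63 CPM for *mbnl-like-1*.

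The same 2 transcripts were lower after *mbnl* RNAi in the other fractions. In X1 *mbnl-like-1* was at 8.20 and 7.96 CPM against 17.6 and 17.6 in control, and *mbnl-1* at 38.9 and 31.2 against 57.6 and 52.2. In X2, with 1 library each and hence no replicate check, *mbnl-like-1* was at 6.69 against 32.5 CPM and *mbnl-1* at 30.3 against 130. In whole worms, also with 1 library each, *mbnl-like-1* was at 4.66 CPM, while the other 8 whole-worm libraries ranged from 21.4 to 28.3, and *mbnl-1* at 61.1, with the others from 98.8 to 114. The log2 difference of *mbnl-like-1* between *mbnl* and control was lower in Xins than in X1 by −1.07, which edgeR's quasi-likelihood test did not call (adjusted p = 1.00, unadjusted 0.0125).

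Of the 4 compared libraries, *mbnl* replicate 1 held 15811388 counts, *mbnl* replicate 2 held 34143465, and the control replicates held 24082601 and 32702707. The other Xins libraries held 20711019 to 32927005. A list of 6 neoblast markers summed to between 4280 and 11700 CPM over the X1 libraries and between 439 and 894 over the Xins libraries, and 10 differentiated-cell markers to between 55.9 and 76.5 CPM in X1 and between 319 and 733 in Xins, with no marker at 0 in any of these libraries. The second list includes *ELAVL4* (comp10994), which does not mark Xins here. It had 607 and 1134 reads in the X1 control libraries against 345 and 823 in the Xins control libraries. Replicate number separated the RNAi libraries more than treatment did. Across transcripts, Pearson's correlation of log2 CPM was 0.978 between the replicate 2 libraries of *mbnl* and control, 0.945 between the replicate 1 libraries, and 0.899 between both *mbnl* libraries. For *mbnl* replicate 1 the grouping by number was weak. Control replicate 1 correlated with *mbnl* replicate 2 by 0.943, nearly the same. *bruli* replicate 1 correlated by 0.944 with *mbnl* replicate 1 and by 0.951 with *mbnl* replicate 2. The term for replicate 2 against replicate 1 was called for 997 transcripts higher (7.58%) and 906 lower (6.89%) (edgeR, adjusted p under 0.05). *mbnl* replicate 1, the shallowest Xins library, stood furthest from the rest on the first principal component, at −78.2 where the other 7 lay between −28.9 and 35.4. Whether the replicates came from separate animals is not stated in the labels, and the p-values reflect no more than the variation among these libraries.

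Across 13148 tested transcripts, edgeR's quasi-likelihood test with replicate number as a block called 0 higher and 0 lower after *mbnl* RNAi (0% in either direction, smallest adjusted p = 0.998). At an unadjusted p under 0.05 it gave 104 higher (0.791%) and 170 lower (1.29%). DESeq2 called 6 higher (0.0456%) and 9 lower (0.0685%), with 191 (1.45%) and 214 (1.63%) at an unadjusted p under 0.05, and limma on log2(cRPKM + 1) called 0 in either direction, with 82 and 280 at an unadjusted p under 0.05. The deposited unit cRPKM is a read count scaled to mappable transcript length and to library size. Of all transcripts, 26.6% were lower within both replicate numbers and 15.3% were higher within both, but only 43 were at least 2-fold lower within both (0.327%) and 10 at least 2-fold higher (0.0761%). These per-replicate ratios had a median of −0.05 in either replicate number. The fitted differences had a median of 0, with 6537 transcripts lower and 6611 higher. The larger share lower within both therefore does not show a general fall. The log2 ratios of replicate 1 and replicate 2 had a Pearson correlation of −0.15 across transcripts, which share 4 libraries and are not independent replicates. The median 95% interval reached log2 0.66 to either side, without adjustment over the transcripts tested. Far larger differences were not called by edgeR either, such as log2 −4.51 for the transcript comp2674 (adjusted p = 0.998). The 0 calls therefore do not bound the size of the differences. Without *mbnl* replicate 2, edgeR called 89 higher (0.677%) and 208 lower (1.58%), whereas it called 0 in either direction without any other single library. That fit has 1 *mbnl* library, the shallowest and furthest on the first component, and takes its spread from the control and *bruli* libraries, the lone library being assumed to vary like them.

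The 43 transcripts that were at least 2-fold lower within both replicate numbers of Xins were followed in libraries that did not choose them. In the whole-worm libraries 33 of them were lower after *mbnl* RNAi than after control RNAi (76.7%, against 49.9% of all transcripts), and 18 had their lowest of the 9 whole-worm levels after *mbnl* RNAi (41.9%, against 17.1%). Another 7 had their highest whole-worm level after *mbnl* RNAi (16.3%, against 19.8%). In X2, 27 were lower (62.8%, against 49.6%), and in X1 33 were (76.7%, against 49.3%). The sizes were much smaller than in Xins, where these transcripts were chosen and had a median log2 difference of −1.97. Their median was −0.06 in whole worms, −0.18 in X2 and −0.31 in X1. Only 26 of the 43 lay below all 4 control and wild type Xins libraries, and only *mbnl-like-1* among the 43 had a name. The following groups did not keep their direction in this way in whole worms and X2, although most of their transcripts did in X1. Of the 10 transcripts at least 2-fold higher within both, 6 were lower in whole worms (60%), 6 were lower in X2 (60%) and 2 were lower in X1 (20%). Of the 903 transcripts with both *mbnl* libraries below all 4 control and wild type libraries, 47% were lower in whole worms and 15% had their lowest whole-worm level after *mbnl* RNAi, at or under the shares of all transcripts, while 695 were lower in X1 (77%).

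**Figure D2:**
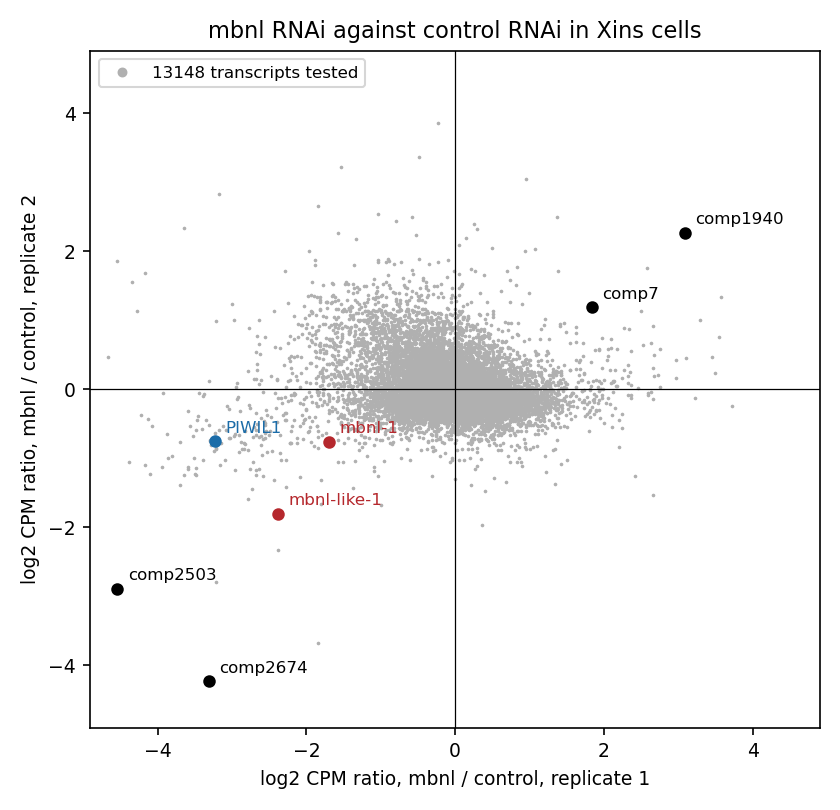
Log2 CPM ratio of *mbnl* RNAi to control RNAi in Xins cells, replicate 1 on the horizontal and replicate 2 on the vertical axis, for the 13148 transcripts tested. *mbnl-like-1* and *mbnl-1* lie in the lower left quadrant, *PIWIL1* is comp659, and the 4 black points are unnamed transcripts that DESeq2 called, which stand apart from a cloud whose correlation was −0.15.

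Of the 15 transcripts that DESeq2 called, only *mbnl-like-1* had a name in the lists used. The unnamed ones are given by 2 in each direction, chosen after their values were seen as those with the smallest DESeq2 p among called transcripts averaging at least 5 CPM. The clearest was comp2503, at 4.45 and 21.6 CPM after *mbnl* RNAi against 115 and 164 in control, 149 and 98.8 after *bruli* RNAi and 105 and 171 in wild type. Both *mbnl* libraries lay below the 6 others, and the fitted log2 difference was −3.54 with standard error 0.70 (DESeq2 adjusted p = 2.80e-06, edgeR 0.998). It also had its lowest whole-worm level after *mbnl* RNAi, 24.4 CPM with the other 8 libraries between 41.0 and 52.8, while in X1 it was at 47.2 and 33.1 against 45 and 33 in control. Its effect in Xins differed from that in X1 by log2 −3.56 (edgeR adjusted p = 1.00, unadjusted 0.00132).

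The transcript comp2674 had the smallest p of all, at 1.55 and 0.421 CPM after *mbnl* RNAi against 19.8 and 16.8 in control (log2 −4.51, standard error 0.55, DESeq2 adjusted p = 3.39e-11, edgeR 0.998). Here the references did not stay apart, with 18.6 and 0.649 CPM in the wild type libraries and 1.93 and 0.543 after *bruli* RNAi, and in whole worms it was at 316 CPM with the others between 273 and 347. In the other direction, comp1940 was at 102 and 7.26 CPM against 11.6 and 1.11 in control, 69.7 and 2.00 after *bruli* RNAi and 4 and 2.73 in wild type (log2 2.97, standard error 0.48, DESeq2 adjusted p = 1.61e-06, edgeR 0.998). It was higher in replicate 1 than in replicate 2 in all 4 groups, and both control replicate 1 and *bruli* replicate 1 lay between the *mbnl* libraries, so that *mbnl* and control overlapped.

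The abundant transcript comp7 held 7.25% and 4.29% of all counts in the *mbnl* libraries, against 2.14% and 1.87% in control, 2.61% and 2.30% after *bruli* RNAi and 2.13% and 1.04% in wild type. Both *mbnl* libraries lay above the 6 others, with a log2 difference of 1.54 and standard error 0.45 (DESeq2 adjusted p = 0.00156, edgeR 0.998). In X1 its share was 4.61% and 2.52% after *mbnl* RNAi against 2.95% and 2.42% in control, higher within both replicate numbers but overlapping between the groups. In X2 its share was 4.26% after *mbnl* RNAi and 5.21% in control, although the scaled levels were 51800 and 51100 CPM. In whole worms it was at 6370 CPM, where the other 8 libraries ranged from 2520 to 84500.

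**Figure D3:**
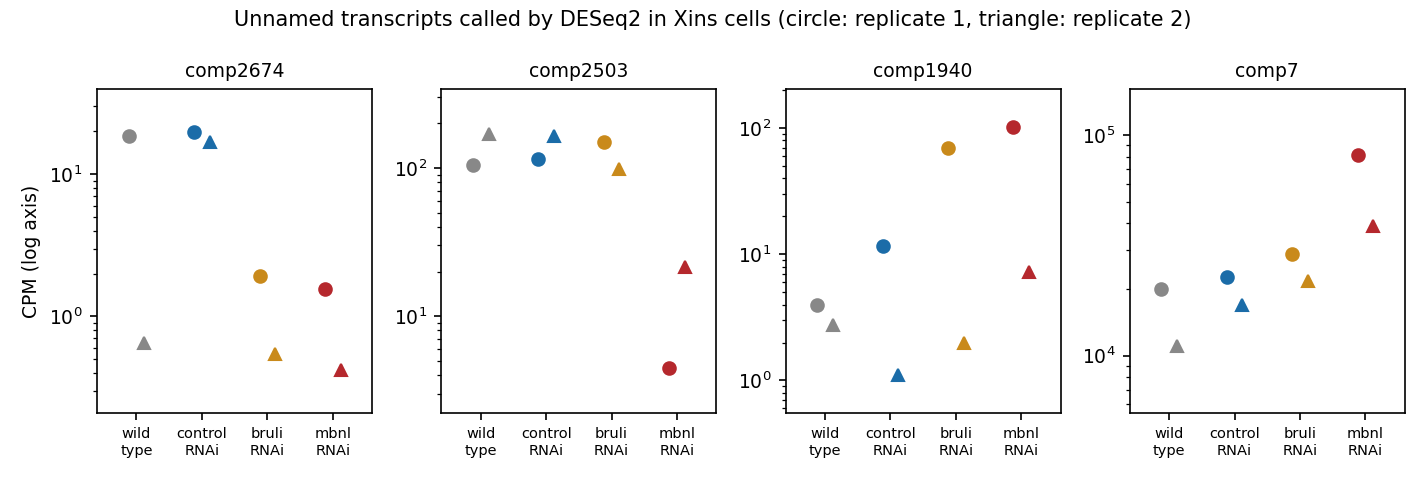
CPM on a log axis of 4 unnamed transcripts called by DESeq2 in the 8 Xins libraries, with circles for replicate 1 and triangles for replicate 2. The *mbnl* points lie apart from every other library for comp2503 and comp7, while comp2674 overlaps with wild type and *bruli* libraries and comp1940 with control and *bruli* libraries.

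Transcripts that neoblasts express more strongly than differentiated cells were lower in the *mbnl* libraries as a group. The set was chosen on wild type libraries alone (1 of X1 and 2 of Xins), as 1114 transcripts at least log2 2 higher in X1 than in Xins, of which 656 passed the filter on low levels. Of these, 389 were lower within both replicate numbers (59.3%, against 26.6% of all transcripts) and 19 higher within both (2.90%, against 15.3%). The median fitted log2 difference was −0.21, where that of all transcripts was 0. The median ratio was −0.22 in replicate 1 and −0.21 in replicate 2, where that of all transcripts was −0.05 in each. The share of all counts taken by the set was 2.29% and 2.27% after *mbnl* RNAi, 2.91% and 2.69% after control RNAi, 2.58% and 2.65% in wild type, and 2.23% and 2.38% after *bruli* RNAi. The *mbnl* libraries lay below all 4 control and wild type libraries and overlapped with the *bruli* libraries. Of the 656, edgeR called 0, with 34 lower and 0 higher at an unadjusted p under 0.05 (against 1.29% and 0.791% of all transcripts), and DESeq2 called 0.

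The share of transcripts that were lower differed with the wild type difference between the fractions. The share of transcripts lower within both replicate numbers was 17.9% among those over log2 4 higher in Xins, 14.5% between 4 and 2, 17.5% between 2 and 1 and 24.2% up to 1 higher in Xins. It was 33.2% among those up to log2 1 higher in X1, 47.3% between 1 and 2, 58.3% between 2 and 4, and 73.8% among 42 transcripts over log2 4 higher in X1. The 4187 tested transcripts at least log2 2 higher in Xins had a median of 0.07, with 15.5% lower and 16.8% higher within both (against 26.6% and 15.3% of all transcripts). The sign of that median turned with limma (−0.05 at a pseudocount of 1, −0.06 at 0.1) and without *mbnl* replicate 2 (−0.02). In bulk RNA, fewer cells of a type and less RNA per cell cannot be told apart, and whether the few neoblast transcripts come from X1-like cells in the Xins gate was not tested. In X1 itself the same 656 transcripts had a median *mbnl* difference of −0.01, in X2 of 0.22 and in whole worms of 0.02.

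**Figure D4:**
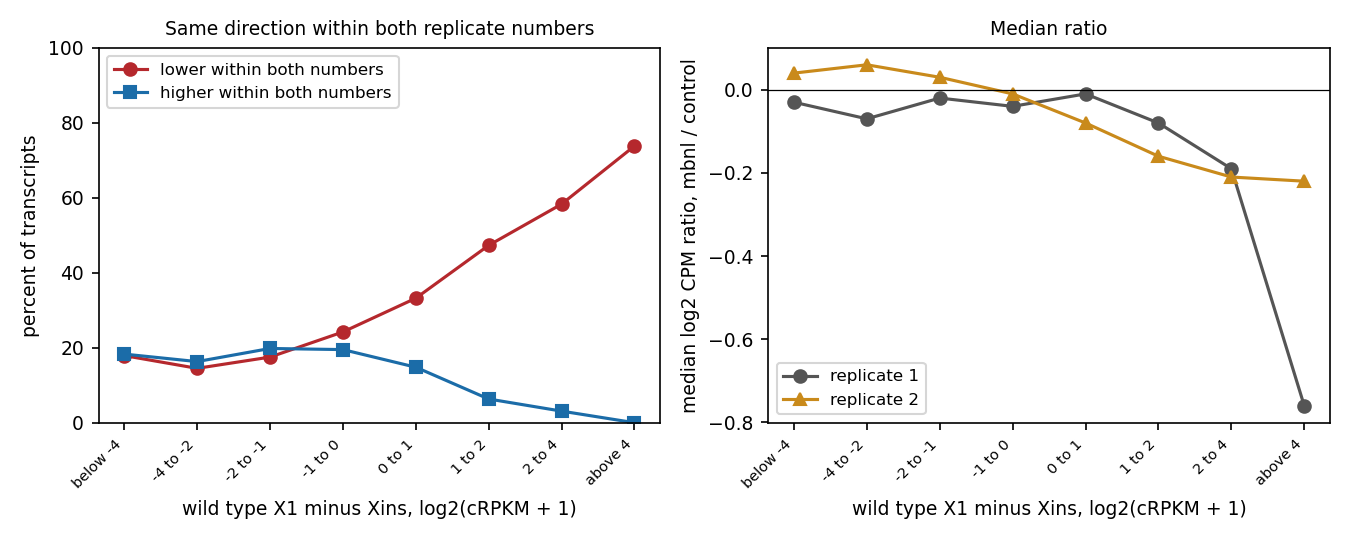
Transcripts binned by their wild type difference between X1 and Xins in log2(cRPKM + 1), with the percent that were lower or higher after *mbnl* RNAi within both replicate numbers (left) and the median log2 CPM ratio of *mbnl* to control in each replicate number (right). The share lower within both lies between 14.5% and 24.2% in the 4 bins higher in Xins and between 33.2% and 73.8% in the 4 bins higher in X1, the last of which holds 42 transcripts.

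Among neoblast markers, all 5 tested were lower within both replicate numbers (26.6% of all transcripts were), with a median of −0.58, and none was called by edgeR or DESeq2. The other listed marker, *PABPC1* (comp11729), did not pass the filter on low levels. It had 19 and 72 reads after *mbnl* RNAi against 149 and 56 in control, and so was not lower in replicate 2. *PIWIL1* (comp659), a homologue of the Argonaute-related proteins that bind piRNAs and protect the genome of germ and stem cells, was at 14.2 and 14.3 CPM, against 137 and 24.4 in control, 48.3 and 77.7 in wild type and 9.20 and 5.86 after *bruli* RNAi. Both *mbnl* libraries lay below all control and wild type libraries, and control replicate 1 was far above replicate 2. The log2 difference was −2.07 with standard error 0.61 (edgeR adjusted p = 0.998, DESeq2 0.0930), and −0.87 without control replicate 1. The second *PIWIL1* transcript (comp1258) was at 227 and 256 CPM, against 443 and 298 in control and 318 and 289 in wild type (log2 −0.58). *bruli* itself, the CELF-family factor that neoblasts need, was at 29.2 and 34.2 CPM against 55.1 and 42.7 in control and 44.8 and 31.8 in wild type (log2 −0.62). The *DDX4* transcripts, homologues of the germ-cell helicase Vasa, differed by log2 −0.19 (comp1985) and −0.18 (comp2082).

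The summed level of the 6 neoblast markers was 495 and 451 CPM after *mbnl* RNAi, 894 and 538 in control, 598 and 546 in wild type, and 468 and 439 after *bruli* RNAi. The *mbnl* libraries were again below the 4 control and wild type libraries, while control replicate 1 was the highest of the 8. Without control replicate 1 the median of the marker list was −0.12, and against wild type in place of control it was −0.25. The 7 piRNA and germ granule transcripts, which include 4 of these markers, had a median of −0.19, but −0.04 without control replicate 1. Within both replicate numbers 6 were lower and 0 higher, where 26.6% and 15.3% of all transcripts were. Of the 10 differentiated-cell markers, 8 were fitted higher and 2 lower, with a median of 0.13, and only 1 was lower and 1 higher within both replicate numbers (10% each, against 26.6% and 15.3% of all transcripts). That list includes *ELAVL4* (comp10994), which had more reads in X1 than in Xins control within both replicate numbers.

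Transcripts that peak in the X2 progeny were also unevenly spread. The 263 tested X2-enriched transcripts, at least log2 1 above X1 and Xins in wild type, made up 2.00% of all transcripts but 25.6% of the 43 that were at least 2-fold lower within both replicate numbers and 44.4% of the 9 that DESeq2 called lower. Wild type X2 and X1 were 1 library each, so membership of the set has no replicate check. Most of those 43, however, were Xins-enriched (25, or 58.1%, against 31.8% of all transcripts), and only 1 was X1-enriched (2.33%, against 4.99%). The X2-enriched transcripts had a median of only −0.05, with 37.3% lower and 14.8% higher within both (against 26.6% and 15.3% of all transcripts). They took 0.943% and 0.911% of counts after *mbnl* RNAi, 1.85% and 1.03% in control, 1.21% and 0.893% in wild type and 1.08% and 0.811% after *bruli* RNAi, so that the groups overlapped and control replicate 1 was the highest.

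Among the 330 tested transcripts with names, mostly RNA-binding proteins, 124 were lower within both replicate numbers (37.6%, against 26.6% of all transcripts) and 30 higher (9.09%, against 15.3%). None was called by edgeR, with 6 lower and 0 higher at an unadjusted p under 0.05, where 1.29% and 0.791% of all transcripts were. The 12 in each direction with the smallest p among those that kept their direction in both replicate numbers are described here as not called by edgeR. After the silenced transcripts and *PIWIL1*, the lowest fold was that of *DHX8* (comp8001), a homologue of the helicase that releases spliced mRNA from the spliceosome, at 9.25 and 8.05 CPM against 28.9 and 12.7 in control and 15.4 and 23.7 in wild type. The difference was log2 −1.13 with standard error 0.29, and *bruli* libraries stood at 16.8 and 10.5. *MEX3D* (comp1999), a homologue of an RNA-binding ubiquitin ligase, was at 100 and 99.0 CPM against 263 and 147 in control and 148 and 199 in wild type, a difference of log2 −0.94 with standard error 0.27, and was at 137 and 79.9 after *bruli* RNAi. Both lay below all control and wild type libraries.

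*MEX3D* was also among the transcripts whose *mbnl* effect differed most between fractions. In X1 it was at 845 and 374 CPM after *mbnl* RNAi against 457 and 326 in control (log2 0.57), and the effect in Xins minus that in X1 was log2 −1.5 (edgeR adjusted p = 1.00, unadjusted 0.00280). In X2 it was at 451 against 788 CPM, the lowest of the 4 X2 libraries, and in whole worms at 150 against 132.

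The next were 4 DEAD-box proteins and 2 hnRNP proteins. *DDX39B* (comp794), a homologue of the mRNA export helicase UAP56, was at 137 and 179 CPM against 266 and 231 in control and 240 and 258 in wild type (log2 −0.65, standard error 0.23). *DDX5* (comp594) was at 392 and 516 CPM against 664 and 707 in control and 690 and 894 in wild type (log2 −0.59). Both helicases lay below every other Xins library. *DDX56* (comp6948) differed by log2 −0.57, *HNRNPL* (comp1327) by −0.47, *HNRNPDL* (comp3582) by −0.45 and *EIF4A3* (comp737), a DEAD-box protein of the exon junction complex, by −0.46. For these 4 the *mbnl* libraries lay below all control and wild type libraries.

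**Figure D5:**
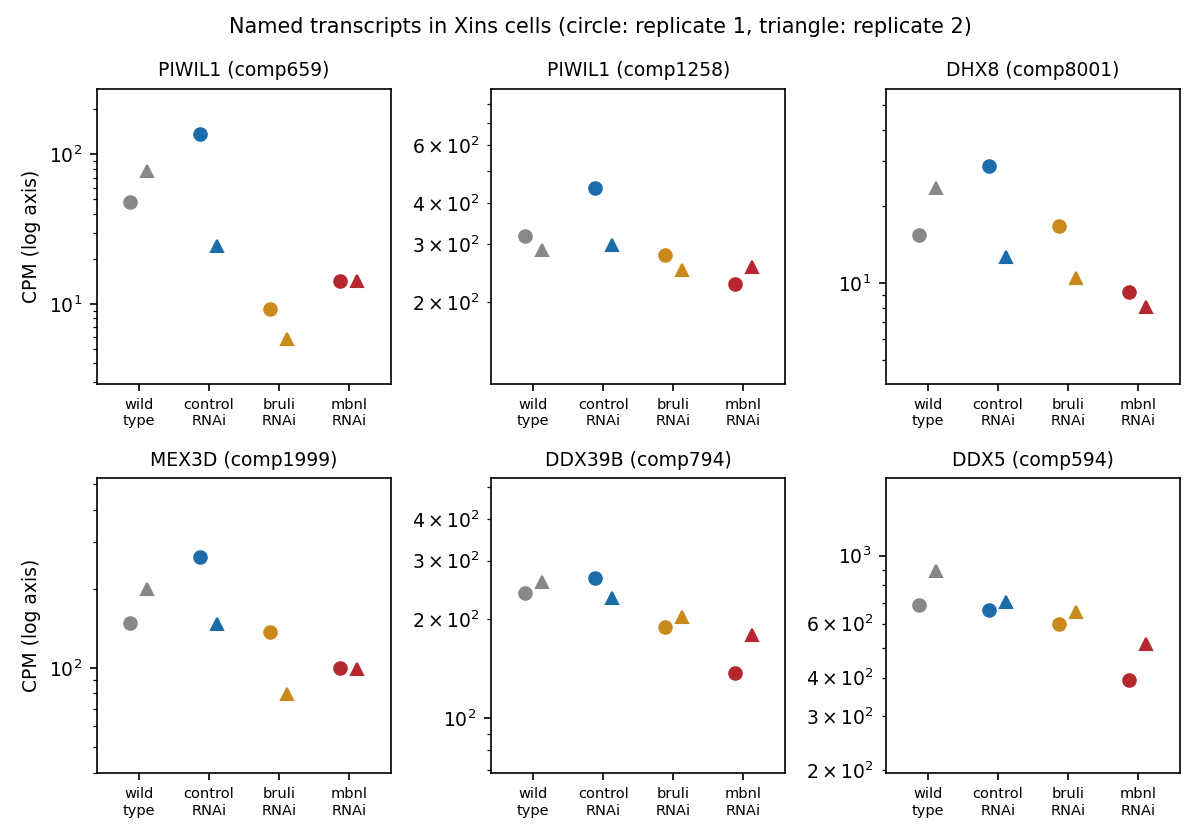
CPM on a log axis of 6 named transcripts in the 8 Xins libraries, with circles for replicate 1 and triangles for replicate 2. In each panel both *mbnl* points are below the control and wild type points, and control replicate 1 of *PIWIL1* (comp659) is the highest at 137 CPM.

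In the other direction the differences were smaller. Among transcripts higher within both replicate numbers, the largest of the 12 was *ZMAT2* (comp3008), at 28.2 and 22.3 CPM against 15.9 and 21.5 in control and 21.4 and 23.1 in wild type (log2 0.45, standard error 0.27). *MEX3A* (comp7864) was at 59.1 and 50.7 CPM against 39.0 and 43.8 in control and 36.7 and 31.4 in wild type (log2 0.41, standard error 0.22), and was the clearer of these transcripts, both *mbnl* libraries lying above all control and wild type libraries. *rbfox-2* (comp9461), a splicing regulator of the Rbfox family, was at 80.3 and 38.9 CPM against 50.3 and 38.2 in control (log2 0.38). *TIA1* (comp10924), *MSI1* (comp7323), *QKI* (comp13063), *RBM7* (comp7082), K12843 (comp5417), *EIF1AD* (comp8143), *DHX15* (comp5858), *UPF3A* (comp5309) and *ANKHD1* (comp6779) followed, with differences from log2 0.31 to 0.18.

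The lists of RNA-processing genes showed no called member other than the silenced *mbnl-like-1*. Of 50 tested DEAD and DEAH helicases, 23 were lower (46%) and 2 higher (4%) within both replicate numbers (median −0.09), and 13 had both *mbnl* libraries below all 4 control and wild type libraries (26%, against 6.87% of all transcripts), while 0 had both above (against 2.11%). The share below all 4 was not particular to helicases. It was 21.3% in the X1-enriched set, 25% for translation factors, 21.4% for hnRNP proteins and 15.1% for all RNA-binding proteins. For SR and TRA2 factors it was 6.67%, for core spliceosome proteins 6.49% and for snRNP, Sm and LSm proteins 5.88%. The following counts stand against 26.6% lower and 15.3% higher within both among all transcripts. Of 14 hnRNP proteins 7 were lower (50%) and 0 higher within both (median −0.05), of 17 snRNP, Sm and LSm proteins 9 (52.9%) and 0 (−0.09), of 6 TIA1 family transcripts 5 and 1 (−0.22), of 12 translation factors 6 (50%) and 3 (−0.08), and of 77 core spliceosome proteins 30 (39%) and 4 (−0.05). Of 15 SR and TRA2 factors 4 were lower (26.7%, the share of all transcripts) and 0 higher (−0.04). Of 16 neural RNA-binding proteins 2 were lower and 4 higher (median 0.11), of 5 epithelial ones 0 and 1 (0.08) and of 3 muscle ones 0 and 0 (0.35). Differences between lists were not tested. The 7 small-RNA silencing factors had a median of −0.05 and the 8 STAR proteins of 0.

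None of the splicing regulators silenced elsewhere in the series was called by edgeR or DESeq2, which does not show that their levels were unchanged. Of 13 tested, 2 were lower (15.4%, against 26.6% of all transcripts) and 3 higher (23.1%, against 15.3%) within both replicate numbers. Their median was 0.02, with a range from log2 −0.62 (*bruli*) to 0.48 (*celf-2*, at 58.4 and 42.8 CPM against 28.5 and 48.4). *esrp-1*, of the epithelial splicing regulators, was at 94.1 and 118 CPM against 91.4 and 121, and *ptbp-2*, a polypyrimidine-tract binding protein, at 131 and 114 against 146 and 133. Of 16 tested orthologues of mammalian genes spliced in stem cells, a list that the study drew from these libraries, 3 were lower (18.8%) and 2 higher (12.5%) within both (median −0.04). Besides *mbnl-1* the smallest p in that list was that of *ANK3* (comp1432), an ankyrin, at 342 and 303 CPM against 486 and 382 (log2 −0.40).

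Against the wild type Xins libraries, edgeR called 0 transcripts higher and 0 lower after *mbnl* RNAi, with 133 (1.01%) and 298 (2.27%) at an unadjusted p under 0.05, and DESeq2 called 0 higher and 8 lower (0.0608%). *mbnl-like-1* differed from wild type by log2 −2.52, *mbnl-1* by −1.32 and *PIWIL1* (comp659) by −2.12. Control against wild type gave 0 and 0 by edgeR, with 16 and 121 at an unadjusted p under 0.05, and 0 and 1 by DESeq2.

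*mbnl* and *bruli* RNAi were compared directly in Xins, since the study reports that they shift many planarian splicing events in opposite directions. The levels of whole transcripts compared here do not test that antagonism. edgeR called 0 higher and 0 lower, with 252 (1.92%) and 227 (1.73%) at an unadjusted p under 0.05, limma called 0 and 0, and DESeq2 called 21 higher (0.16%) and 11 lower (0.0837%), with 332 (2.53%) and 252 (1.92%) at an unadjusted p under 0.05. *bruli* was at 29.2 and 34.2 CPM after *mbnl* RNAi against 8.18 and 14.4 after its own RNAi (log2 1.56, unadjusted p = 0.00308 in edgeR), and *mbnl-like-1* differed by log2 −1.92 (unadjusted p = 0.000679). *PIWIL1* (comp659) was higher after *mbnl* RNAi than after *bruli* RNAi by log2 1.10 (unadjusted p = 0.112 in edgeR). *PCBP3* (comp7334), a poly(C)-binding protein, was at 35.3 and 37.3 CPM after *mbnl* RNAi and at 73.2 and 47.9 after *bruli* RNAi (log2 −0.66). The X1-enriched set had a median of −0.21 after *bruli* RNAi against the same control libraries, the same value as after *mbnl* RNAi, and since the controls are shared these are not independent.

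The *mbnl* effect in Xins was finally set against that in X1 over 12 libraries. edgeR called 0 transcripts with a higher and 0 with a lower effect in Xins, with 83 (0.631%) and 163 (1.24%) at an unadjusted p under 0.05, limma called 0 and 0, and DESeq2 called 3 (0.0228%) and 6 (0.0456%) while giving no adjusted p for 7137 transcripts. In X1 alone edgeR called 0, with 338 higher and 167 lower at an unadjusted p under 0.05, and DESeq2 called 1 higher and 6 lower. Besides *MEX3D* and *mbnl-like-1*, the named transcripts with the smallest p for a lower effect in Xins were *DHX8* comp8001 (−1.06), *PIWIL1* comp659 (−1.83) and *TIA1* comp2139 (−0.47), and for a higher effect *SF3B6* (comp11998), *AGO2* comp7594 (0.32), *ASCC1* (0.50), *DHX8* comp5357 (0.33) and *ZMAT2* (0.40). No size is given for *SF3B6*, which had only 0 and 1 reads after *mbnl* RNAi and 2 and 4 in control in X1.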

How the data were processed

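Poly-A selected RNA of sorted cells and whole worms was sequenced, and the authors aligned reads with Bowtie (version not given in the sources used here) to a de novo planarian transcriptome. Each deposited table holds, per transcript, cRPKM (RPKM corrected for mappable positions) and raw read counts, made by the authors; blank counts were read as 0. Gene names come from the study's lists, with 330 named transcripts tested. Transcripts with mean log2(cRPKM + 1) above 1.5 over the 4 compared libraries were kept (13148 of 22944). Counts of the 6 Xins RNAi libraries were fitted with edgeR 4.0.16 (TMM scaling, quasi-likelihood, Benjamini-Hochberg, threshold 0.05) with replicate number as a block; wild type comparisons used 8 Xins libraries without a block, and the comparison with X1 used 12. DESeq2 1.42.0 and limma 3.58.1 in R 4.3.3 were alternatives. Per-replicate log2 ratios used CPM + 0.5. Depth was 15811388 to 34143465 counts in Xins, where 3 counts equal 0.088 to 0.19 CPM. Code was tested on simulated data. Named transcripts are the silenced genes, up to 12 per direction with the smallest p and the same direction in both replicate numbers, up to 5 per direction with the smallest p in the comparisons with *bruli* RNAi and X1, list members with the smallest p, and markers. Members, lists and tests were chosen with earlier results of these data known. No library was left out.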

Additional observations from a re-analysis of the deposited data

How the results depend on the processing

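The replicate number was used as a block, although nothing in the labels pairs the libraries; the difference between replicates correlated across transcripts by 0.50 (control and *mbnl*), 0.73 (control and *bruli*) and 0.57 (*mbnl* and *bruli*), and by −0.42 between control and wild type. With no replicate block, *mbnl* against control again gave 0 higher and 0 lower calls. With a block the wild type comparisons gave 0 calls too, also with wild type numbers crossed, and against the mean of control and wild type, both chosen after seeing the data, *mbnl* gave 0. DESeq2 gave 6 higher and 9 lower against control, 21 and 11 against *bruli* RNAi, 8 lower against wild type, 1 lower for control against wild type, and 3 and 6 for Xins minus X1, and called *mbnl-like-1* at log2 −2.16. Leaving out 1 library gave 0 to 89 higher and 0 to 208 lower against control, 0 to 83 and 0 to 177 against *bruli*, and 0 to 13 lower for Xins minus X1, the upper ends without *mbnl* replicate 2, a fit with 1 *mbnl* library assumed to vary like the other groups, where *mbnl-1* (−1.67) and *mbnl-like-1* (−2.53) were called; their ranges were −1.67 to −0.73 and −2.53 to −1.86. The cause was not tested.

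The X1-enriched median, −0.21, was −0.19 with 12 libraries, −0.18 with DESeq2 size factors or DESeq2, −0.22 with upper-quartile scaling, −0.29 and −0.33 with limma at pseudocounts 1 and 0.1, −0.29 with no filter, −0.16 against wild type (which helped define the set), −0.32 at the stricter threshold, and −0.22 to −0.13 leaving out 1 library. The Xins-enriched median, 0.07, was −0.05 and −0.06 with limma and −0.02 to 0.14 leaving out 1 library. The X2-enriched median, −0.05, was −0.06 (4 libraries, upper quartile), −0.04 (12 libraries), −0.02 (DESeq2 size factors, DESeq2), −0.15 and −0.17 (limma), −0.11 (no filter), 0.08 (against wild type), −0.17 (stricter threshold) and −0.10 to −0.01 leaving out 1 library. The neoblast marker median ran from −0.83 to −0.12 leaving out 1 library. Leaving out 1 library gave −0.01 to 0.45 for *DHX15* and −0.01 to 0.42 for *UPF3A*, both lowest without *mbnl* replicate 1, and *EIF1AD* was −0.19 against wild type. Transcripts under the stricter filter, *mbnl-like-1* included, gave no value there. Precision is limited by 2 libraries a group.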
